A study of Mus musculus with 2 samples.

Results

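The genes described here encode 10 integrin chains, chosen by name: the leukocyte beta-2 family (Itgb2, Itgam, Itgal and Itgax) and 6 broadly used or stromal chains (Itga5, Itga4, Itgb1, Itgav, Itga6 and Itgb5). They are 10 of the 21938 protein-coding genes of GENCODE M21 on the mouse genome build mm10 outside the mitochondrial genome. The readout was H3K36me3 chromatin immunoprecipitation sequencing (ChIP-seq) in wild-type C57BL/6J bone marrow-derived macrophages (BMDM) that had received no stimulus. The labels gave 1 group with 2 biological replicates, both under a single donor record, with age and sex not collected, so the spread between the replicates may be partly technical. With 1 group there was no comparison between conditions and no test across samples. Values of genes were set beside each other in each replicate.

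Integrins are cell-surface receptors built of an alpha and a beta chain. The beta-2 chain pairs with the alpha chains of Itgal, Itgam, Itgax and Itgad and is found on leukocytes, where it serves firm adhesion, phagocytosis of complement-coated particles and migration. The beta-1 and alpha-v chains each have many partners and bind matrix proteins such as fibronectin and vitronectin. H3K36me3 is the trimethylation of lysine on histone H3 that is laid down during transcription elongation and lies over the bodies of transcribed genes, generally more so away from the start.

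The covered share is the percent of a gene body, from its first to its last annotated base, that lay under the authors' peaks. Replicate 1 had 32098 peaks spanning 28.5 Mb, and replicate 2 had 58505 peaks spanning 79.4 Mb, and all 9 integrin genes with a peak were covered more in replicate 2. The median coding gene had a covered share of 0% in both replicates, since 61.3% of coding genes had no peak in either. The read depth behind the peaks was unknown, and a gene without a peak was undetected at these depths, not shown to lack the mark. Of 10 macrophage marker genes, 6 were covered to at least 20% in both replicates, among them Ctss (42.8% and 71.8%), Fcgr1 (34.2% and 67.2%) and Trem2 (37.3% and 60.8%). All 6 B cell, 5 natural killer cell, 6 dendritic cell, 6 fibroblast and 6 megakaryocyte markers were without a peak. Of 7 T cell markers only Cd28 had peaks (12.5% and 16.0%), and of 7 neutrophil markers only Csf3r did (22.8% and 68.2%).

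Within the beta-2 family, the gene of the shared beta chain was covered, Itgam was covered less, and Itgal and Itgax were bare or nearly so. Among the other chains all 6 genes carried peaks in both replicates, and Itga5 and Itga4 had the highest covered shares of all 10 integrin genes. A covered share of at least 20% in both replicates was reached by 1 of 4 beta-2 genes (Itgb2) and by 3 of 6 other chains (Itga5, Itga4 and Itgb1), against 7.63% of all coding genes. The corresponding share of genes was 9.49% among the 7873 coding genes as long as the integrin genes, 21.1 to 120 kb. In replicate 1 alone the threshold was met by 1 of 4 beta-2 genes and 3 of 6 other chains, against 7.65% of coding genes. In replicate 2 it was met by 2 of 4 and 4 of 6, against 23.3%. The second beta-2 gene, Itgam, did not meet it with as many replicate 2 peaks as replicate 1 had, 8.61% against 26.3% with all peaks. A peak in both replicates was present in 2 of 4 beta-2 genes and in 6 of 6 other chains, against 28.8% of coding genes.

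**Figure D1:**
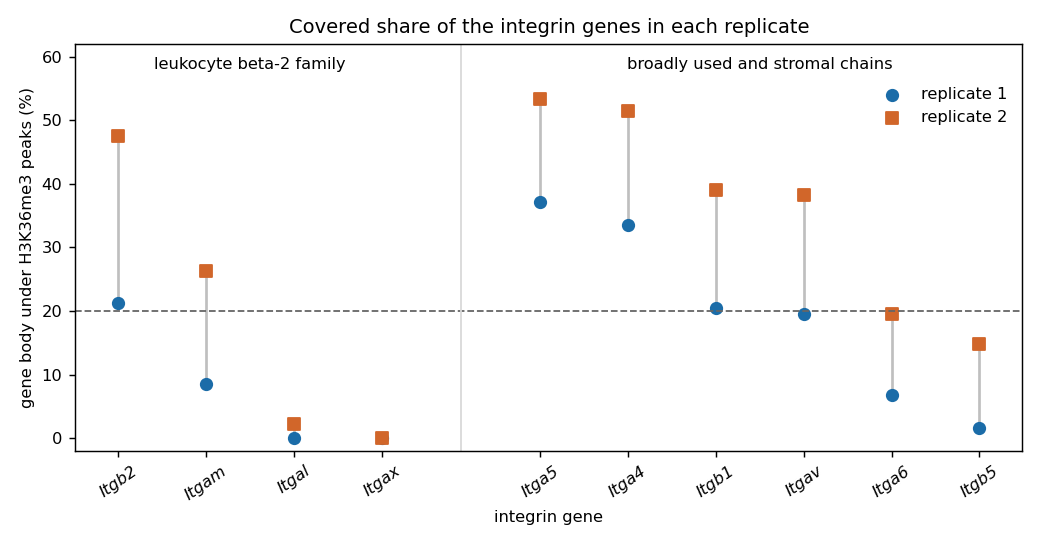
Percent of each gene body under H3K36me3 peaks (y axis) for the 4 beta-2 family genes and the 6 other integrin genes (x axis), with 1 point for each replicate joined by a line. The dashed line marks 20%; Itgal and Itgax lay at or near 0, while Itga5 and Itga4 were above the line in both replicates.

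Itgb2 encodes the beta-2 chain (CD18), without which none of the leukocyte alpha chains of this family reaches the cell surface. Its body, chr10:77530252-77565708 on the plus strand with 16 exons, was covered to 21.2% by 8 peaks in replicate 1 and to 47.5% by 7 peaks in replicate 2. Both values lay above those of most coding genes, 92.9% of which were covered less in replicate 1 and 90.7% in replicate 2. The first peak began 12.0 kb from the start in replicate 1 and 11.8 kb in replicate 2. In the authors' pooled and replicated lists it began 2.83 kb from the start. The 3′ end of the gene held most of the mark: the 3′ 50% of the body had 84.4% and 78.9% of its covered bases. In bin 9 of 10 along the body, 86.4% of bases were covered in replicate 1 and 100% in replicate 2. The longest peak over any integrin gene was here, 7666 bp at chr10:77555644-77563309 in replicate 2. All covered bases of replicate 1 lay under peaks of replicate 2.

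Itgam encodes the alpha-M chain (CD11b), which with beta-2 forms complement receptor 3 (Mac-1) and is widely used as a myeloid marker. Its body, chr7:128062640-128118491 on the plus strand with 30 exons, was covered to 8.46% by 5 peaks in replicate 1 and to 26.3% by 13 peaks in replicate 2. The peaks were scattered rather than gathered at the end, with 68.5% and 53.6% of covered bases in the 3′ 50%. The 3′-most exons were bare in both replicates. In the authors' replicated list the last peak ended 1.03 kb before the gene end, within the last exon, and in the pooled list 3.29 kb before it. An annotated coding record on the same strand, the readthrough gene Gm49368, takes in 99.9% of the Itgam body, so peaks could not be assigned to Itgam alone. Gm49368 itself was covered to 7.21% in replicate 1 and to 22.4% in replicate 2.

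Itgal encodes the alpha-L chain (CD11a), which with beta-2 forms LFA-1, a receptor for ICAM proteins. In its body, chr7:127296260-127335138 on the plus strand with 31 exons, replicate 1 had no peak. Replicate 2 had 1 peak, 832 bp long at chr7:127306581-127307412, with an enrichment of 3.42, which made a covered share of 2.14%, and 0% with equal numbers of peaks. In the authors' pooled list the single Itgal peak began 28.9 kb from the start rather than 10.3 kb, so the lists did not place the mark at the same position. Itgax encodes the alpha-X chain (CD11c), which with beta-2 forms complement receptor 4 and is used as a marker of dendritic cells and some macrophages. No peak lay in its body, chr7:128129547-128150657 with 30 exons, in replicate 1, replicate 2 or the pooled list. Of coding genes as long as the integrin genes, 47.3% likewise had no peak in either replicate. Itgad, the next beta-2 partner gene downstream, was also at 0% in both.

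The sequences below are 3 sites within the beta-2 family, shown because Itgb2 and Itgam had exons under peaks of both replicates while Itgal had a single peak. Of the short internal exons wholly under peaks of both replicates, the one with the highest summed enrichment was taken. The enrichments given are therefore not typical of the gene. Each site is given 5′ to 3′ on the coding strand of mm10, with exon bases in capitals and intron bases in lower case. For Itgb2 the site is exon 10 with 40 bases on either side, chr10:77557350-77557570, under peaks with enrichments of 3.93 in replicate 1 and 5.04 in replicate 2. For Itgam it is exon 11 with the same margins, chr7:128085503-128085712, under peaks with enrichments of 3.52 and 3.82. For Itgal it is the 200 bases around the summit of the replicate 2 peak, chr7:127306650-127306849, which hold all but the first bases of exon 10 and the start of the next exon.
Itgb2 exon 10: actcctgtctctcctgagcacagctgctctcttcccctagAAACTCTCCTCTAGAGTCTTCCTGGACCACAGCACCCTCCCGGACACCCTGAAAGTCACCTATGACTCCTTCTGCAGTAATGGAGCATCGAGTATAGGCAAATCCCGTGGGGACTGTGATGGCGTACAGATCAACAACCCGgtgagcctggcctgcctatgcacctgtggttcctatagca
Itgam exon 11: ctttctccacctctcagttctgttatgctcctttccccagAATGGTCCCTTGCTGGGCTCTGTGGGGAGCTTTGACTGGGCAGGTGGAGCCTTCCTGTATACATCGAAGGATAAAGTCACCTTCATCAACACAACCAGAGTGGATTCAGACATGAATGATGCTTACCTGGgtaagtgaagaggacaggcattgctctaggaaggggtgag
Itgal summit: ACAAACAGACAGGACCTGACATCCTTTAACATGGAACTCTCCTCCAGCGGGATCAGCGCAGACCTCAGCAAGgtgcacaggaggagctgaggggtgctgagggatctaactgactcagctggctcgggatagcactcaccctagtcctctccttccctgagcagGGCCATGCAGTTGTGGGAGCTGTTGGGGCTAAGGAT

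Itga5 encodes the alpha-5 chain, which with beta-1 forms the classical fibronectin receptor. Its body, chr15:103344286-103366763 on the minus strand with 30 exons, was covered to 37.1% in replicate 1 and to 53.3% in replicate 2, by 7 peaks in each. The highest enrichment over any integrin gene lay here, 7.29 for a peak of 3902 bp at chr15:103347726-103351627 in replicate 2. Its exons were largely covered, with 20 of 30 wholly under peaks in replicate 1 and 24 in replicate 2. Itga4 encodes the alpha-4 chain, which with beta-1 forms VLA-4, a receptor for VCAM1 and fibronectin. Its body, chr2:79255426-79333123 on the plus strand with 28 exons, was covered to 33.5% by 22 peaks in replicate 1 and to 51.5% by 27 peaks in replicate 2. Its covered bases were split about evenly between the first and last 50% of the body, with 49.8% and 57.1% in the 3′ 50%, but not evenly within them: bin 6 of 10 was covered to 0% and 28.0%, and bin 4 to 65.2% and 77.7%. Its last 2581 bp overlap the convergent gene Cerkl, which 3 of its replicate 2 peaks reached and none of replicate 1. Cerkl was covered to 0% in replicate 1 and 2.00% in replicate 2.

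For these 2 most covered alpha chains the following sites lay under peaks of both replicates and are shown as examples, in the same format. They were likewise taken for the highest summed enrichment and are not typical of their genes. Itga4 exon 8, chr2:79281454-79281596, lay under peaks with enrichments of 5.01 in replicate 1 and 5.56 in replicate 2. Itga5 exon 23, chr15:103350334-103350494 on the minus strand, lay under peaks with enrichments of 3.66 and 7.29.
Itga5 exon 23: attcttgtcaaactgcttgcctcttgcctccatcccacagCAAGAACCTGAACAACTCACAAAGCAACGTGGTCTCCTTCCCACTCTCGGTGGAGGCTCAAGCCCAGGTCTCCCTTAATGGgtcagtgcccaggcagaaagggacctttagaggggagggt
Itga4 exon 8: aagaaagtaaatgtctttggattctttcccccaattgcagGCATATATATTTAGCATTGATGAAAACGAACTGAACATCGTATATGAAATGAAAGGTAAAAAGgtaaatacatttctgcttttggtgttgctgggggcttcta

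Itgb1 encodes the beta-1 chain, the partner of most alpha chains including alpha-4, alpha-5 and alpha-6. Its body, chr8:128685654-128733200 on the plus strand with 16 exons, was covered to 20.4% by 11 peaks in replicate 1 and to 39.0% by 17 peaks in replicate 2. Its mark was confined to the 3′ 50% in replicate 1 (100% of covered bases), and 90.5% of covered bases lay there in replicate 2. Peaks ran 2084 bp past its annotated end in replicate 1 and 886 bp in replicate 2. The last replicate 1 peak reached the convergent gene Ccdc7a, whose annotated end lies 1034 bp away and which was covered to 0.317% and 0.465%. Itgav encodes the alpha-v chain, which pairs with several beta chains to bind vitronectin and to activate latent TGF-beta. Its body, chr2:83724397-83806916 on the plus strand with 30 exons, was covered to 19.5% by 17 peaks in replicate 1, just under the threshold, and to 38.3% by 25 peaks in replicate 2. The covered share of Itgav was thus close to that of Itgb1 in both replicates.

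Itga6 encodes the alpha-6 chain, a laminin receptor chain with beta-1 or beta-4. Its body, chr2:71745616-71858416 on the plus strand, was covered to 6.81% by 10 peaks in replicate 1 and to 19.5% by 20 peaks in replicate 2. All of these peaks lay in the 3′ 50%, the first one 72.1 kb from the annotated start in replicate 1 and 71.6 kb in replicate 2. The body begins 41 kb upstream of the longest coding transcript, and 11.0% and 30.4% of that transcript's span were covered. Itgb5 encodes the beta-5 chain, a partner of alpha-v that binds vitronectin and takes part in the uptake of apoptotic cells. Its body, chr16:33829665-33949338 on the plus strand and the longest of the 10 at 119674 bp, was covered to 1.64% by 3 peaks in replicate 1 and to 14.8% by 14 peaks in replicate 2. Its strongest replicate 2 peak, with an enrichment of 6.43, lay at chr16:33846339-33847294 in an intron 16.7 kb from the start, and no replicate 1 peak touched it. Itgb5 was the least covered of the 6 other chains in both replicates.

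In the order of mean covered share, the genes ran Itga5 (45.2%), Itga4 (42.5%), Itgb2 (34.4%), Itgb1 (29.7%), Itgav (28.9%), Itgam (17.4%), Itga6 (13.1%), Itgb5 (8.22%), Itgal (1.07%) and Itgax (0%). The ranges spanned by the 2 replicates overlapped between every pair of neighbours, while each replicate taken alone gave this same order, with Itgal and Itgax tied at 0% in replicate 1. With equal numbers of peaks the replicate 2 order changed: Itgb2 (47.5%) stood above Itga4 (38.1%), Itgav (30.8%) above Itgb1 (24.5%), and Itgam (8.61%) under Itga6 (12.8%) and Itgb5 (11.0%). For the beta-2 family the median of the genes was 4.23% (replicate 1) and 14.2% (replicate 2), against 20.0% and 38.7% for the other chains. The beta-2 median was therefore lower by 15.7 percentage points in replicate 1 (-15.7) and by 24.5 in replicate 2 (-24.5). Over coding genes of the same length range the medians were 0% and 1.33%. These are descriptions of 4 and 6 genes chosen by name, and the family values overlapped: Itgb2 was covered more than Itgb1, Itgav, Itga6 and Itgb5 in both replicates.

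**Figure D2:**
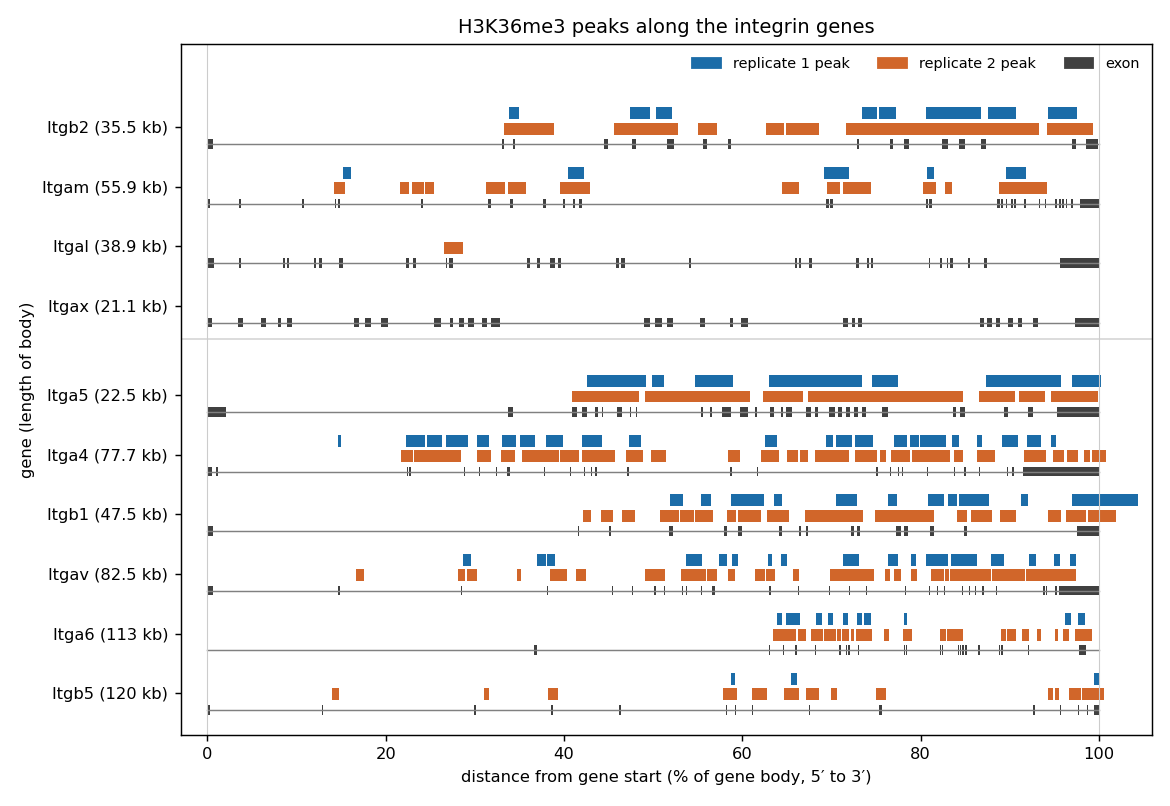
Peaks of replicate 1 (blue) and replicate 2 (orange) and exons (dark) along each integrin gene, drawn from gene start to gene end (x axis, percent of the gene body), with the beta-2 family above the line and the other chains under it. Peaks lay away from the gene starts in every gene that had any, and those of Itga6 all lay past the middle of its annotated body.

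With each body divided into 10 equal bins, no integrin gene was covered in bin 1, at its start, in either replicate. No peak of either replicate lay in the 5 kb before any of the 10 starts. In the authors' pooled and replicated lists, however, the first Itgb2 peak began 2.83 kb from the start, within bin 1. Among the 1598 genes of at least 5 kb covered to 20% in both replicates, bin 1 was covered to 1.16% on average in replicate 1 and 4.23% in replicate 2. For 7 of the 10 genes a RefSeq promoter window of 300 bases was at hand (GRCm38.p6), and 0 of these windows lay under a peak. The highest mean coverage of the beta-2 family was in bin 9, 24.7% in replicate 1 and 33.7% in replicate 2. That of the other chains was in bin 8, 36.5% and 67.7%. The beta-2 value in bin 9 came mainly from Itgb2 (86.4% and 100%), with Itgam at 12.2% and 34.7% and Itgal and Itgax at 0%. Itgam itself was covered most in bin 8 in replicate 1 (19.6%) and in bin 4 in replicate 2 (46.2%). Called genes had a median of 71.0% and 65.5% of covered bases in the 3′ 50%. Itgb2, Itga5, Itgb1, Itgav, Itga6 and Itgb5 lay above both medians, while Itgam and Itga4 lay under both. The placing of Itga6 rests on its annotated body, which begins upstream of its longest coding transcript. Its share within that transcript was not computed.

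**Figure D3:**
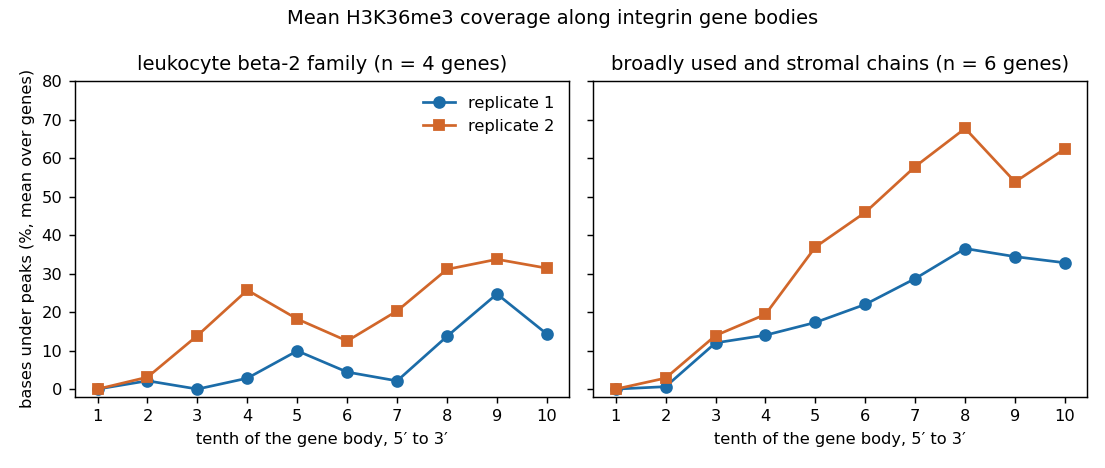
Mean percent of bases under peaks (y axis) in each of 10 equal bins of the gene body from 5′ to 3′ (x axis), for the 4 beta-2 family genes on the left and the 6 other chains on the right, with 1 line for each replicate. Both families were at 0 in bin 1 and highest in bin 9 (beta-2 family) or bin 8 (other chains). The beta-2 mean in bin 9 came mainly from Itgb2, with Itgal and Itgax at 0 there.

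Exon bases were covered more than intron bases in every gene with peaks, in each replicate. In Itgb2 42.4% of exon bases and 19.2% of intron bases were covered in replicate 1, and 74.3% and 45.0% in replicate 2. In Itgam the values were 25.0% and 6.82% in replicate 1, and 48.5% and 24.1% in replicate 2. Among the other chains Itgb1 had the widest gap in replicate 1, with 63.6% of exon bases against 16.3% of intron bases. Itga4 and Itgav had narrow gaps, 39.7% against 32.2% and 26.4% against 18.5% in replicate 1. Exons are not spread evenly along these genes, and the contrast was not adjusted for position. Of the 83 integrin peaks of replicate 1, 29 held no exon base, as did 47 of the 131 peaks of replicate 2.

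**Figure D4:**
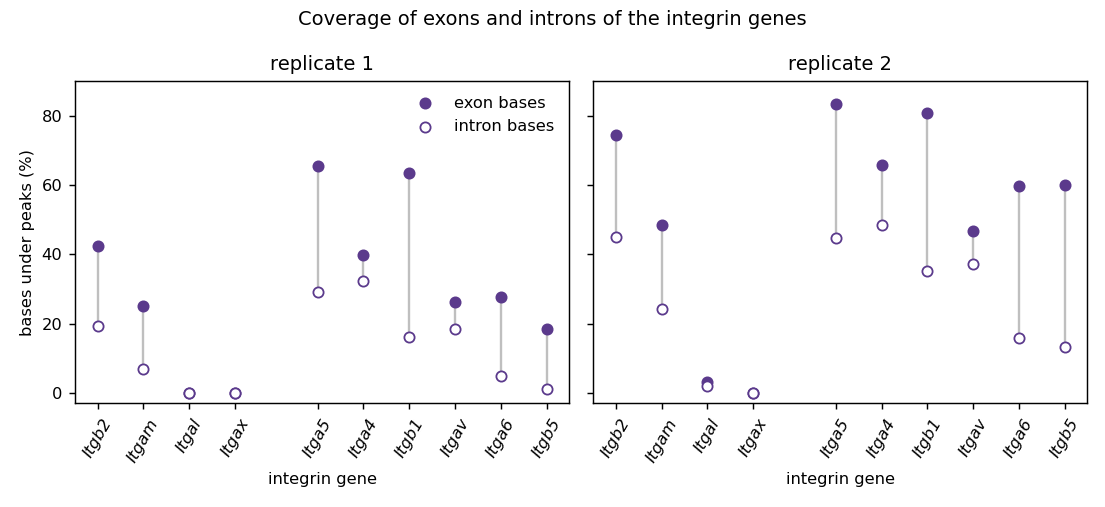
Percent of exon bases (filled) and intron bases (open) under peaks (y axis) for each integrin gene (x axis), replicate 1 on the left and replicate 2 on the right. Exon values lay above intron values wherever a gene had peaks, and Itgax was at 0 for both.

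The cytoplasmic tails of the chains carry short motifs that govern activation: in alpha chains glycine, phenylalanine, phenylalanine, lysine and arginine next to the membrane, and in beta chains asparagine, proline, any residue and tyrosine or phenylalanine, here the copy nearer the membrane, which talin binds. The codons of these motifs all lay in the last exon and are shown as sites near the gene end that were checked for peaks. They do not mark how far the peaks reached. Itga4 peaks of replicate 2 ran 597 bp past the gene end, though its motif was under no peak. Each line is on the coding strand of mm10, motif codons in capitals with 15 bases on either side. The motif codons of the beta-2 family come first, then those of the other chains.
Itgb2: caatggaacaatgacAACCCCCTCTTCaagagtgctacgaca
Itgam: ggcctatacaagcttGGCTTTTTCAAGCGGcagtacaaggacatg
Itgal: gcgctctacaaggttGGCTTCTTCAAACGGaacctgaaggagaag
Itgax: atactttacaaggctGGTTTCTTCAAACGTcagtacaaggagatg
Itga5: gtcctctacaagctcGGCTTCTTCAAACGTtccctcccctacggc
Itga4: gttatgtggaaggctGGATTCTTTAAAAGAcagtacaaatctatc
Itgb1: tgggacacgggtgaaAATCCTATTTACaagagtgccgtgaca
Itgav: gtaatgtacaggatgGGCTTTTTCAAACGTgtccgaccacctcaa
Itga6: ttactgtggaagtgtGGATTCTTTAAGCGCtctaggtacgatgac
Itgb5: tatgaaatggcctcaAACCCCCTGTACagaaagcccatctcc

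Of the beta-2 family, the Itgb2 motif, chr10:77565181-77565192, was outside the peaks of replicate 1, the nearest of which was 354 bp away, and under a peak of replicate 2. The motifs of Itgam, Itgal and Itgax were under no peak in either replicate, and the nearest peak to that of Itgam was 3419 bp away in replicate 1 and 2069 bp in replicate 2. By contrast, the motifs of Itga5, Itgb1, Itgav and Itga6 lay wholly under peaks in both replicates. The Itga4 motif fell in a gap, with the nearest peaks 314 bp and 73 bp away. That of Itgb5 missed the nearest replicate 1 peak by 11 bp and was under a replicate 2 peak.

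The replicates placed the mark at largely the same sites, with many more sites in replicate 2. Of the 83 integrin peaks of replicate 1 (13 in the beta-2 family and 70 in the other chains), 73 (88.0%) lay for at least 50% of their length under peaks of replicate 2. Of the 131 of replicate 2 (21 and 110), 48 (36.6%) lay likewise under peaks of replicate 1, and 54 were untouched by any. Median enrichment over these peaks was 3.25 in replicate 1 and 3.99 in replicate 2, near the 3.22 and 3.83 of the whole lists. The highest enrichment over Itgb2 was 3.93 in replicate 1 and 5.04 in replicate 2, and over Itgam it was 3.66 and 5.04. Over the other chains the highest values ran from 3.46 to 5.01 in replicate 1 and from 5.04 to 7.29 in replicate 2. The authors' enrichment is a value of each peak and was used only within its own list.

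Which genes reached the threshold depended on which peaks were counted. With peaks of at least 5 in −log10 q, Itga5 alone reached 20% in both replicates, against 1.44% of coding genes, and Itgb2 was covered to 8.08% in replicate 1. With an enrichment of at least 3, Itga5 and Itga4 did, against 4.86%, and Itgb2 had 12.9% in replicate 1. In the authors' pooled list Itgb2 (48.2%), Itgam (33.8%), Itga4 (67.2%), Itga5 (54.6%), Itgav (49.6%), Itgb1 (48.6%) and Itga6 (21.7%) reached it, against 25.1%. The replicated list gave the same 7 genes, against 24.0%. At a threshold of 10% in both replicates 5 of the 10 genes were called, with Itgav added, against 15.2%, and at 50% none did, against 0.415%.

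The remaining integrin chains and the genes around them give the setting. All 17 other integrin subunit genes stayed under 20%, and 16 of them had no peak in either replicate, against 61.3% of coding genes without a peak and 7.63% at 20% in both replicates. The exception was Itgb4, the partner chain of alpha-6, at 0% in replicate 1 and 0.107% in replicate 2. Itga1 and Itga10, collagen receptor chains, were at 0%. Among 15 activators and tail-binding proteins 4 were covered to 20% in both replicates and 4 had no peak, beside the same 7.63% and 61.3% of coding genes, with medians of 4.11% and 17.0%. Tln1, the talin that binds beta tails and activates integrins, reached 65.0% and 80.5%, the haematopoietic kindlin gene Fermt3 23.4% and 74.3%, and Fblim1, which encodes the adaptor migfilin, 22.0% and 70.0%. The other kindlin genes, Fermt1 and Fermt2, had no peak.

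Of 18 kinases and adaptors of signalling from integrins 4 were covered to 20% in both replicates and 5 had no peak, against 7.63% and 61.3% of coding genes, with medians of 5.54% and 17.3%. Vav1, an exchange factor active in blood cells, was covered to 34.4% and 64.7%. The tyrosine kinase gene Syk was covered to 29.1% and 46.0%, while Fgr and Bcar1 had no peak. Of 18 counter-receptors and matrix ligands 1 was covered to 20% in both, Tgfb1 at 25.9% and 57.2%, and 13 had no peak, which is near the 7.63% and 61.3% of coding genes. Icam1, a ligand of LFA-1 and Mac-1, had 9.31% and 44.9%, and C3, whose fragment iC3b is bound by complement receptor 3, had 3.99% and 35.5%. Col1a1 and Fga, genes of a collagen chain and a fibrinogen chain, had no peak.

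**Figure D5:**
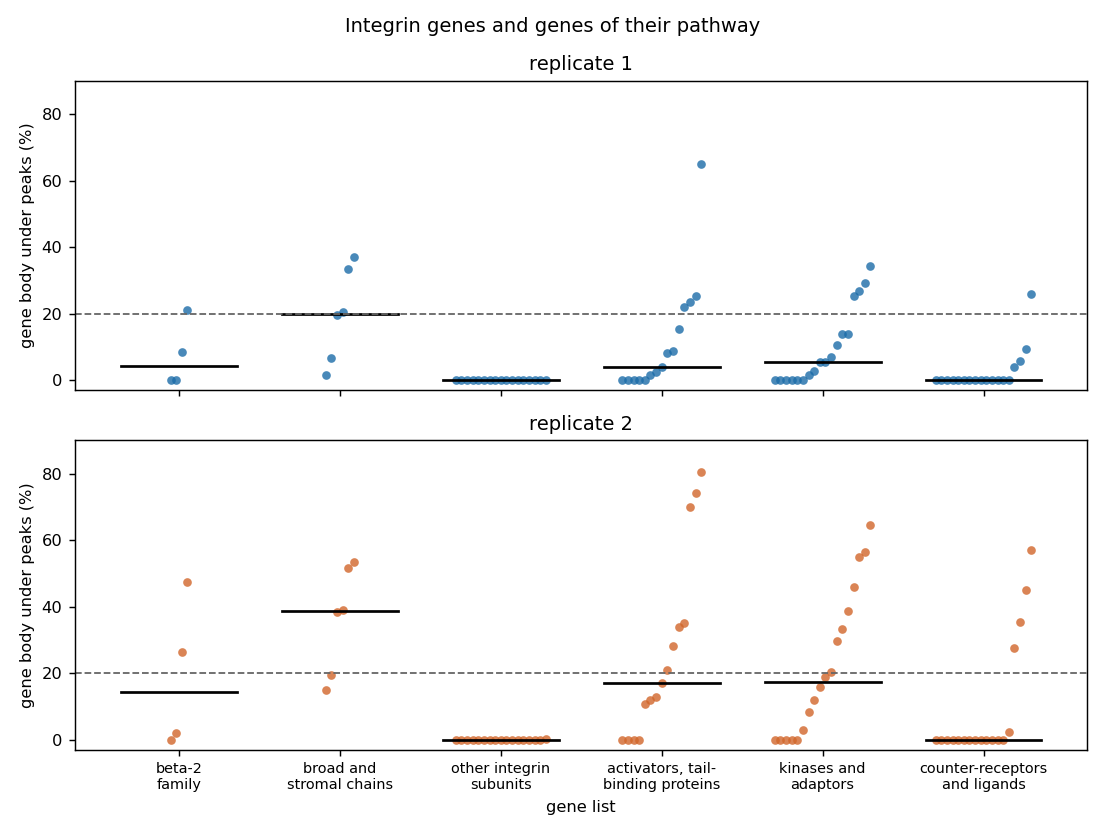
Percent of the gene body under peaks (y axis) for each gene of the beta-2 family, the other integrin chains and the 4 pathway lists (x axis), replicate 1 above and replicate 2 under it, with points for genes, bars for list medians and a dashed line at 20%. The other integrin subunits lay at or near 0, while each of the remaining lists held genes above the line.

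The genes whose coverage along the body was most like that of Itgb2 were Osbpl8, Ccnj and Hk2. Likeness was the Euclidean distance over 20 values, the covered percent in each of the 10 bins in each replicate, among 17798 genes of at least 5 kb. Osbpl8 lay at a distance of 56.9 percentage points from Itgb2, Ccnj at 59.8 and Hk2 at 65.8. For Itgb1 they were Myo18a at 43.2, Cflar at 47.1 and Kmt2e at 54.4. These names describe a pattern within 2 libraries of 1 group.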

How the data were processed

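H3K36me3 ChIP-seq peak lists were deposited for 2 biological replicates of BMDM. Per the labels, libraries began from 10 ng of DNA with a size range of 350 to 480 bp. Per the file headers, each replicate's peaks (mm10) were kept when found in its pseudoreplicates; a pooled list and a replicated list of the whole series served as alternatives. The peak caller and aligner were not given in the sources used here. The authors deposited for each peak a score, an enrichment (a linear ratio), a −log10 p-value and a −log10 q-value. The control experiment named in the labels was not analysed here.

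Peak intervals were merged within a list and set against gene bodies of GENCODE M21 (mm10). The covered percent was computed with Python 3.11.15, numpy 2.4.6 and pandas 2.3.3 (matplotlib 3.10.9 for figures). The calculation was tested on simulated data. No read counts were at hand, so the depth is unknown, no interval could be given, and genes were not tested. Because 1 group was sampled, values were described by counts and medians. The genes and lists were chosen with earlier results of these data known. All 10 integrin genes were named, with the 3 highest and the 2 lowest genes of each other list and the 3 genes most alike in profile to Itgb2 and Itgb1. A gene that the rule names is not reported here. Other exceptions to this rule are Itgad, a neighbour of Itgax, Gm49368, Cerkl and Ccdc7a, which touch an integrin gene or its peaks, and Itgb7. Alternatives covered stricter peaks, equal numbers of peaks, other lists, thresholds, transcripts and overlap.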

Additional observations from a re-analysis of the deposited data

How the results depend on the processing

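The count of 4 integrin genes at 20% in both replicates stood against 7.63% of all coding genes. It was 1 with −log10 q of at least 5 (against 1.44%) and 2 with an enrichment of at least 3 (4.86%). In the pooled list it was 7 (25.1%), in the replicated list 7 (24.0%), and at a threshold of 50% it was 0 (0.415%). It was 4 with equal numbers of peaks, with the longest transcript and with bases shared with another coding gene left out, and 5 at 10%. The share of all coding genes was 15.2% at 10%. It was not computed with equal numbers of peaks, with the longest transcript or with shared bases left out. Replicate 1 alone gave a count of 4 integrin genes, against 7.65% of coding genes, and replicate 2 alone gave 6, against 23.3%. The count of 1 beta-2 gene was 0 with the stricter q (against 1.44% of all coding genes) and 0 with the stricter enrichment (4.86%). In the pooled list it was 2 (25.1%), in the replicated list 2 (24.0%), and at 50% it was 0 (0.415%). Replicate 1 alone gave 1 (7.65%) and replicate 2 alone gave 2 (23.3%). The median difference, beta-2 family minus other chains, was -20.1 percentage points over the mean of the replicates. It was -11.0 with the stricter q, -31.5 in the pooled list, -33.6 in the replicated list, -29.0 over exon bases and -28.2 with overlapping bases left out, where Itgam has no value. It ran from -24.5 to -15.7 with a replicate left out. The causes were not tested. Of 89 values of single integrin genes under alternatives, 80 stayed within the standard deviation of the 2 replicates and 9 moved beyond it. This tally does not measure robustness. Values with a replicate left out cannot move beyond that spread, and Itgax was at 0% under every setting. The 0 reversals were fixed in advance, since a covered percent is never negative. No paired analysis was possible because only 1 group was sampled.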

Other observations

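Itgb7, the gene of the beta-7 chain that pairs with alpha-4, had no peak in either replicate but was covered to 7.90% in the authors' pooled list and to 7.90% in the replicated list. It was singled out after its values were seen.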
